A study of Mus musculus with 6 samples.

Results

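Amino acids enter and leave mouse cells largely through 7 solute carrier families, SLC1, SLC3, SLC6, SLC7, SLC36, SLC38 and SLC43, and their mRNAs were examined in splenic regulatory T cells (Tregs) in which Zfp335 had been deleted. Members were taken by symbol, as every row whose name begins with one of these family names. The rule found 67 of the 32285 rows of the count table. Of these, 63 were carriers or their heavy chains and 4 were genes named for lying on the strand opposite a carrier (Slc7a6os, Slc36a1os, Slc36a3os and Slc6a19os).

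WT and KO mice on the C57BL/6 background were compared by bulk RNA-seq, with 3 libraries each. KO Tregs came from ERCre Zfp335 fl/fl mice, in which a tamoxifen-activated Cre recombinase removes a floxed part of Zfp335, a gene for a zinc finger transcription factor. WT Tregs came from mice that the study's methods call tamoxifen-treated ERCre animals and the sample labels call wild-type littermates, so whether the controls carried Cre rests on the study's methods. According to these methods, mice of 6 weeks received 3 injections of tamoxifen at 10 mg/mL and were killed on day 7, and both groups shared this treatment. The study's methods do not limit ERCre to a cell type, so the deletion may not have been limited to Tregs. The cells were sorted as CD4+CD25+ from spleen. The sources used here do not say how many animals were behind each library. The p-values therefore set group differences against the spread between these libraries, which may not be that between animals.

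Resting lymphocytes take up few amino acids, and activated ones increase uptake sharply, since leucine, glutamine and arginine feed protein synthesis and the kinase complex mTORC1. Several carriers work in series: sodium-coupled carriers load the cell with glutamine, and exchangers then trade it for leucine and other large neutral amino acids. The light chains of the SLC7 family reach the cell surface bound to a heavy chain of the SLC3 family. Shortage of amino acids induces a number of these genes through the transcription factor ATF4.

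Each library held between 133283969 and 209041812 counts. Values are given in CPM, the unit of edgeR that divides a count by the TMM-scaled library size, and levels of different genes were compared per kb of merged exon length. Zfp335 itself was counted at 124.4, 120.7 and 115.2 CPM in WT and at 15.0, 14.3 and 15.1 CPM in KO (log2 fold change -3.02 ± 0.046 SE, adjusted p = 1.2e-13, edgeR's quasi-likelihood test). All 7 Treg markers examined were present in every library, with Foxp3 at 1136 ± 17.4 CPM in WT and 1052 ± 9.24 in KO (SD, n = 3). By edgeR's quasi-likelihood test 4 of the 7 were called, Foxp3 and Il2ra lower (log2 fold changes -0.11 and -0.15) and Ctla4 and Tnfrsf18 higher (0.65 and 0.12). The summed CPM of markers of other cells was lower in KO for B cells (57.9 to 63.1 in WT, 27.7 to 29.1 in KO), neutrophils (17.5 to 23.2 against 0.878 to 1.30) and red cells (36.6 to 43.5 against 1.81 to 2.31), with 6 of 6 genes of each list called lower. Of 6 macrophage and dendritic cell markers 3 were called lower (summed 44.3 to 48.8 CPM in WT and 29.7 to 32.0 in KO), and of 4 CD8 T and NK cell markers none was (summed 15.0 to 15.9 and 14.4 to 15.8), by edgeR's quasi-likelihood test, DESeq2 or limma-voom, with 0 at an unadjusted p under 0.05. No gene of these lists was at a count of 0 in a WT library. The groups also differed in sex-linked RNA. Xist, expressed from the inactive X of female cells, was at 0.272 ± 0.132 CPM in WT and 134.6 ± 10.4 in KO (SD, n = 3). All 4 Y-linked genes examined were counted in every library, and 3 of them were called lower in KO, among them Ddx3y (102.7 ± 3.88 and 78.7 ± 1.81 CPM). Genotype and this difference in sex-linked RNA cannot be told apart in any comparison of WT with KO. In bulk samples, fewer cells of a type and less RNA per cell cannot be told apart.

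Many of the carriers were barely detectable in these Tregs, and a small set accounted for most of the counts. Of the 67 members, 45 passed edgeR's expression filter and were tested, and 26 had a mean of at least 1 CPM over the 6 libraries. The 22 that were not tested never exceeded 0.451 CPM in any library. Of these, 8 had no count at all (Slc1a7, Slc6a14, Slc6a16, Slc6a18, Slc7a9, Slc7a13, Slc7a15 and Slc36a2), which allows a level of up to 0.0223 CPM, or 3 counts, in the shallowest library. Among them, Slc7a9 and Slc6a18 are known from kidney and Slc1a7 from retina. This limit covers counting error alone and takes each count as an independent fragment, which is not known.

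Slc1a5, the glutamine exchanger also called ASCT2, was the highest member per unit length, at 108.1 ± 9.88 CPM per kb in WT and 114.9 ± 1.16 in KO (SD, n = 3). Its mean level lay at percentile 98.0 of the 17091 tested genes with an annotated length. Slc3a2, the CD98 heavy chain, followed at 46.5 ± 1.89 CPM per kb in WT and 66.1 ± 1.94 in KO, and Slc38a2, the sodium-coupled glutamine and alanine carrier SNAT2, at 37.8 ± 1.38 and 51.9 ± 0.556. The libraries of these 3 genes did not overlap with those of the next gene in either group. Slc7a5, the leucine exchanger LAT1, came next at 25.2 ± 1.95 CPM per kb in WT and 37.8 ± 0.320 in KO. In WT its libraries overlapped those of the gene below it, Slc38a10 (24.5 CPM per kb), whereas in KO they did not (25.2 CPM per kb for Slc38a10). Slc38a1, Slc36a1, Slc43a2 and Slc7a1 formed a group between 7.73 and 9.64 CPM per kb in which several neighbours overlapped. With the longest transcript in place of merged exons, 9 of the highest 10 members were shared and Slc38a10 ranked above Slc7a5.

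**Figure D1:**
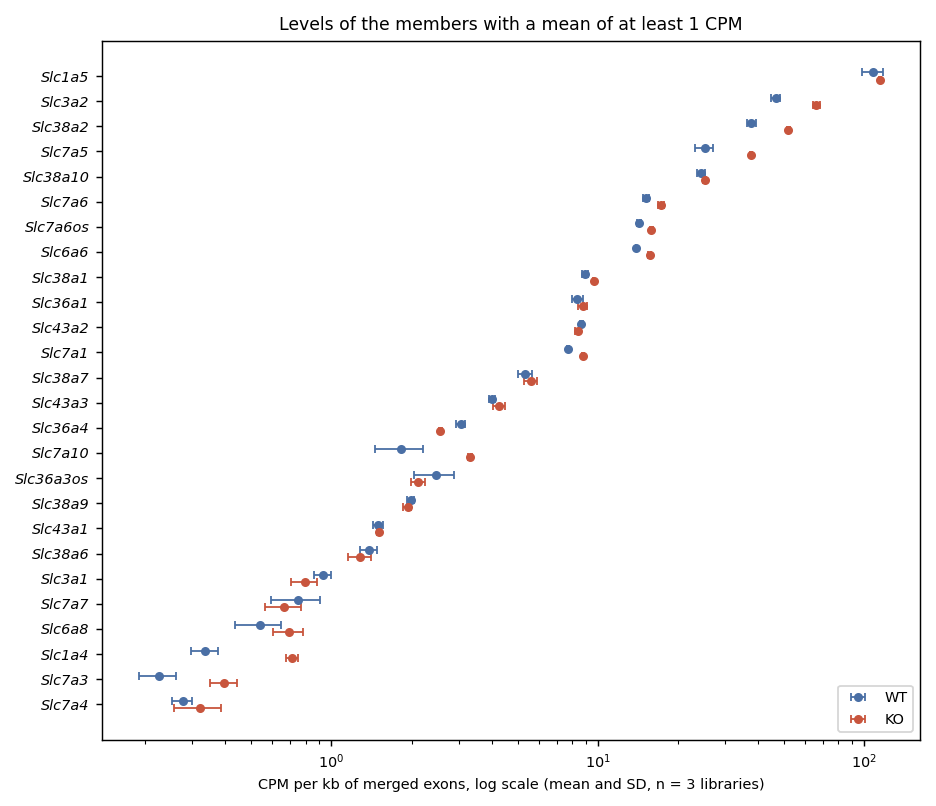
Level of the 26 members with a mean of at least 1 CPM, as CPM per kb of merged exons on a log axis, with the mean and SD of 3 WT (blue) and 3 KO (red) libraries. Slc1a5 lies highest in both groups and Slc7a3 and Slc7a4 lowest, and the KO points of Slc3a2, Slc38a2 and Slc7a5 lie to the right of their WT points.

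Between genotypes, members called higher in KO outnumbered those called lower. By an adjusted p under 0.05 in edgeR's quasi-likelihood test, 16 of the 45 tested members were called, 13 higher and 3 lower. The called share was 35.6% of the members tested, against 24.1% of all 17307 genes tested. The 13 that rose were 28.9% of the members, where 12% of all genes rose, and the 3 that fell were 6.67%, where 12.1% of all genes fell. At the study's cutoffs (a change of 1.5-fold or more, with p under 0.05 and an adjusted p under 0.1) 9 members passed, where 6.95% of all genes did. Of these 9, 5 were higher (2.58% of all genes) and 4 lower (4.37% of all genes). The study gives these cutoffs for DESeq2 in other Treg libraries, from Foxp3Cre mice, and here they were applied to the edgeR fit. In 14 members every KO library lay above every WT library, and in 6 every KO library lay below, where 19.3% and 19.1% of all genes had such non-overlapping groups. The median log2 fold change was 0.044 over the 45 members and -0.0042 over all genes tested. Among the 26 members at 1 CPM or more, 12 were called (46.2%, against 30.9% of 12025 genes at that level), 11 of them higher.

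**Figure D2:**
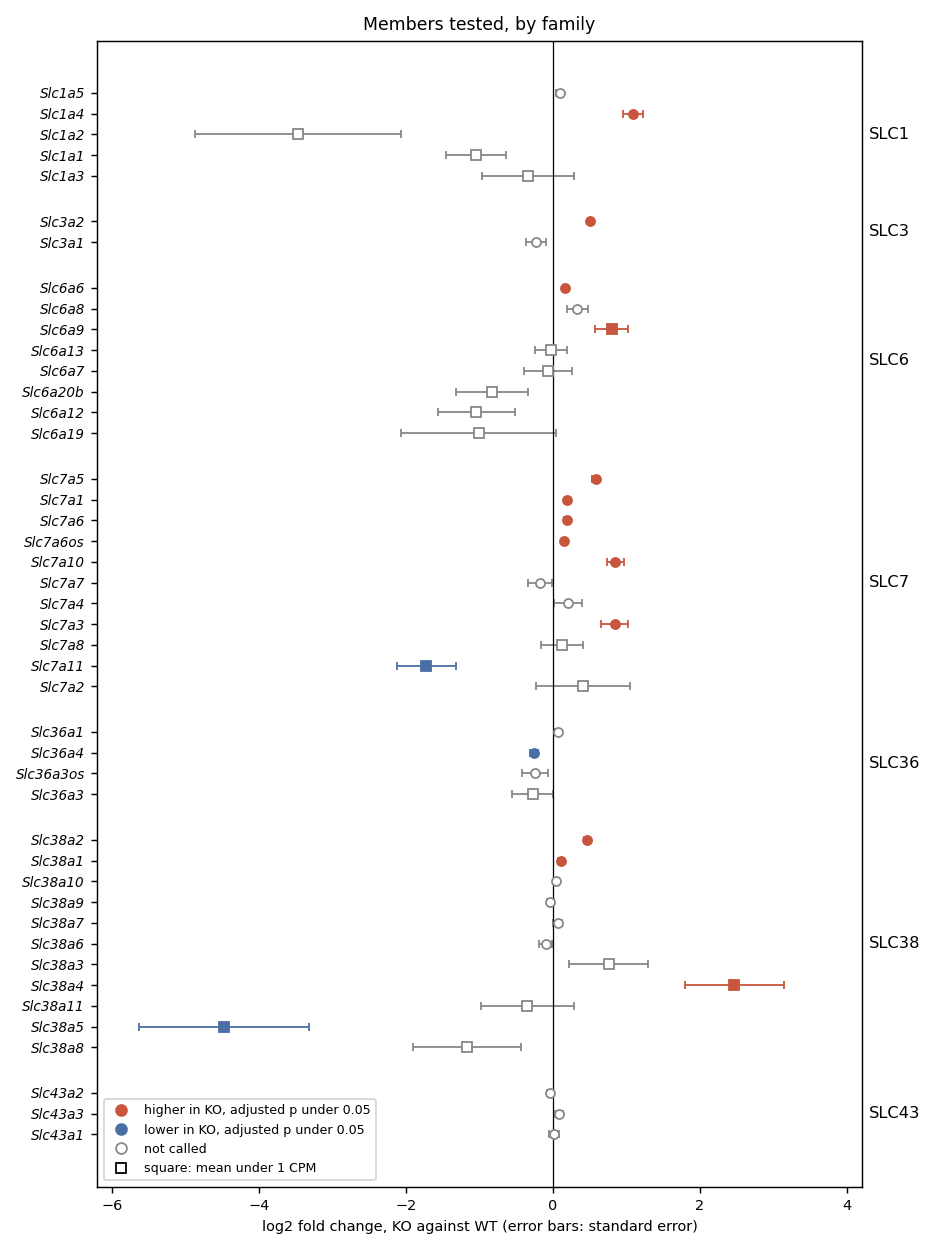
Fitted log2 fold change (KO against WT) with its standard error for the members tested, leaving out 1 that is not reported here, grouped by family and ordered by level within it. Of the filled symbols, 13 lie right of 0 (higher) and 3 left (lower), and the wide error bars belong to squares, the members under 1 CPM, whose fitted values depend on the prior count.

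The members called higher were in the SLC7 and SLC38 families, with the SLC3 heavy chain Slc3a2, Slc1a4 of SLC1 and Slc6a6 and Slc6a9 of SLC6. Among the carriers of SLC7, 10 of 15 were tested, of which 5 were called higher and 1 lower (60.0% called, against 24.1% of all genes tested). All 11 SLC38 carriers were tested, with 3 called higher and 1 lower (36.4%). Of the 6 SLC38 carriers at 1 CPM or more 33.3% were called, close to the 30.9% of all genes at that level. SLC6 had the most members, 21 carriers, of which 9 were tested and 2 called higher (22.2%). In SLC1 1 of 5 tested carriers was called higher, and in SLC36 1 of 3 was called lower. None of the 3 SLC43 carriers was called by edgeR's quasi-likelihood test (adjusted p between 0.328 and 0.949, and 0 at an unadjusted p under 0.05), nor by DESeq2 or limma-voom. No difference between families was tested.

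The heavy chain of the CD98 complexes and 3 of its 6 light chains rose in KO, and 1 light chain fell. The called light chains were 66.7% of the 6, where 24.1% of all genes tested were called, 12% higher and 12.1% lower. Slc3a2 (chr19:8706882-8723369, minus strand, GRCm38) encodes the heavy chain that carries 6 SLC7 light chains to the membrane. It was counted at 171.8, 160.8 and 159.8 CPM in WT and at 241.1, 230.9 and 228.1 CPM in KO. The groups did not overlap, and the KO mean was 42.2% above WT (log2 fold change 0.51 ± 0.038 SE, adjusted p = 6.45e-07, edgeR's quasi-likelihood test). Slc7a5 (chr8:121881150-121907694, minus strand), its partner for leucine and other large neutral amino acids, was counted at 99.6, 95.0 and 85.4 CPM in WT and at 139.2, 141.4 and 139.5 CPM in KO. Every KO library was well above the highest WT library, with a mean difference of 50.1% (log2 fold change 0.58 ± 0.048 SE, adjusted p = 1.39e-06, edgeR). Its fitted change lay just under the study's 1.5-fold cutoff, and it passed that cutoff in 7 of 17 alternative fits, DESeq2 among them (log2 fold change 0.586, where 1.5-fold is 0.585).

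Slc7a6, which encodes y+LAT2, an exchanger of cationic for neutral amino acids, was counted at 67.6, 70.1 and 70.3 CPM in WT and 76.6, 80.2 and 80.2 CPM in KO. Its rise was smaller than that of Slc7a5, at 13.9%, but the groups did not overlap (log2 fold change 0.19 ± 0.038 SE, adjusted p = 0.00255, edgeR). Slc7a10, which encodes Asc-1, a carrier of small neutral amino acids, was counted at 4.76, 3.46 and 3.34 CPM in WT and 6.88, 7.03 and 7.10 CPM in KO. The KO mean was 81.6% higher, again without overlap (log2 fold change 0.85 ± 0.114 SE, adjusted p = 0.000127, edgeR). Lrp3, on the opposite strand, covers 17.9% of the exon bases of Slc7a10, and since no source used here says whether the counting took strand into account, reads there cannot be assigned with certainty. Lrp3 was counted at 0.599 ± 0.060 CPM in WT and 0.705 ± 0.030 in KO (SD, n = 3, adjusted p = 0.529, edgeR). Slc7a7 (2.48 CPM in WT, 2.20 in KO, adjusted p = 0.487, edgeR) and Slc7a8 (0.594 and 0.651 CPM, adjusted p = 0.807), light chains best known from epithelia, were not called. Slc7a6os, the neighbour of Slc7a6 on the other strand, shares no exon bases with it and encodes no carrier. It was counted at 60.2 ± 0.954 CPM in WT and 67.1 ± 1.01 in KO (SD, n = 3, log2 fold change 0.15, adjusted p = 0.00726, edgeR).

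Per unit length, the 6 light chains together reached 43.1 ± 2.03 CPM per kb in WT and 59.2 ± 0.842 in KO (SD, n = 3). The ratio of light to heavy chain mRNA was 0.926 ± 0.030 in WT and 0.895 ± 0.037 in KO, a difference of -0.031 that was within the spread of the libraries (exact permutation test, two-sided, p = 0.4). Within the light chains, Slc7a5 made up 58.4% ± 1.82 of the sum in WT and 63.8% ± 0.504 in KO, while Slc7a6 made up 35.3% ± 2.33 and 29.2% ± 0.442. Slc7a10 made up 4.23% ± 0.710 in WT and 5.61% ± 0.066 in KO. None of these shares overlapped between groups. Each gave p = 0.1 in the two-sided exact permutation test, the smallest value that 3 against 3 libraries allow.

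**Figure D3:**
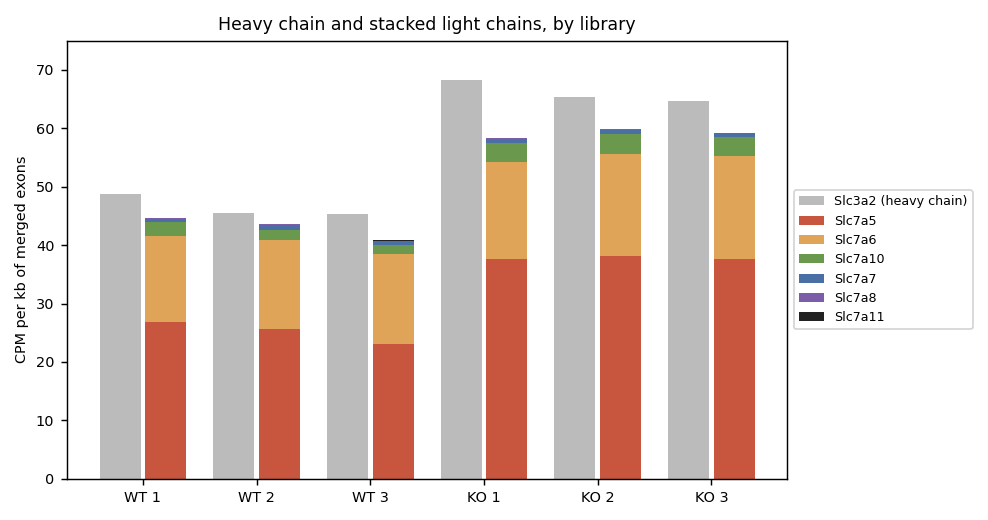
Slc3a2 (grey) and the 6 light chains stacked beside it in each of the 6 libraries, as CPM per kb of merged exons. Both bars are taller in the 3 KO libraries, Slc3a2 between 64.6 and 68.3 and the light chains between 58.3 and 60.0, and Slc7a5 is the largest part of each stack.

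Of the cationic carriers, which bring in arginine, lysine and ornithine, Slc7a1 and Slc7a3 were higher in KO. Slc7a1, the broadly expressed carrier CAT1, was counted at 89.8, 88.7 and 89.1 CPM in WT and 102.7, 101.9 and 100.6 CPM in KO. The 3 libraries of each group lay close together and the groups were separate (difference 14.1%, log2 fold change 0.19 ± 0.033 SE, adjusted p = 0.00096, edgeR's quasi-likelihood test). Slc7a3, which encodes CAT3 and lies on chromosome X, was much lower, at 0.841, 0.724 and 0.988 CPM in WT and 1.58, 1.61 and 1.29 CPM in KO. It rose by 75.4% with no overlap (log2 fold change 0.84 ± 0.186 SE, adjusted p = 0.00533, edgeR). The part of the difference in sex-linked RNA in its values was not tested. Slc7a2 and Slc7a4 were not called (adjusted p = 0.704 and 0.485, edgeR), and Slc7a14 was not tested.

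The sodium-coupled carriers of SLC38 move glutamine and other small neutral amino acids. Slc38a2 (chr15:96687392-96699730, minus strand), whose product SNAT2 is known to increase when amino acids are short, was counted at 321.3, 334.5 and 345.5 CPM in WT and 458.5, 454.4 and 464.2 CPM in KO. The groups were far apart, and the KO mean was 37.5% higher (log2 fold change 0.46 ± 0.034 SE, adjusted p = 6.00e-07, edgeR's quasi-likelihood test). Slc38a1, its close relative SNAT1, was counted at 154.2, 157.9 and 151.0 CPM in WT and 166.2, 166.4 and 165.9 CPM in KO. Its rise of 7.62% was the smallest of any called member (log2 fold change 0.11 ± 0.032 SE, adjusted p = 0.0299, edgeR), and 7 of 17 alternative settings did not call it, including leaving out any of WT replicates 2 and 3 and KO replicates 1, 2 and 3 (adjusted p up to 0.113 among these). The other SLC38 members at 1 CPM or more were not called: Slc38a9, the lysosomal arginine sensor (33.1 CPM in WT and 32.2 in KO), Slc38a7, a lysosomal glutamine carrier (22.1 and 23.2), Slc38a10 (157.2 and 162.1) and Slc38a6 (10.8 and 9.97). Their adjusted p lay between 0.417 and 0.63 (edgeR). Slc38a6 is uncertain, because 35.5% of its 50-base stretches also occur in transcripts from elsewhere in the genome.

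In SLC1, both neutral amino acid exchangers were present, and one of them was called. Slc1a5 (chr7:16781340-16798274, plus strand) was counted at 496.1, 441.8 and 415.2 CPM in WT and 485.0, 478.0 and 475.7 CPM in KO. WT replicate 1 lay above all KO libraries and the other WT libraries below them, and the gene was not called (log2 fold change 0.088 ± 0.053 SE, adjusted p = 0.268, edgeR's quasi-likelihood test). This depended on that library, since without WT replicate 1 the log2 fold change was 0.16 and the adjusted p 0.00123. Slc1a4, which encodes ASCT1, an exchanger of alanine, serine and cysteine, was counted at 1.42, 1.14 and 1.40 CPM in WT and 2.96, 2.71 and 2.70 CPM in KO. It was the most increased member at 1 CPM or more, with a KO level 2.12 times that of WT and no overlap (log2 fold change 1.09 ± 0.139 SE, adjusted p = 7.89e-05, edgeR). The glutamate carriers of this family, best known from neurons and glia, stayed under 1 CPM on average, and none of the 3 tested was called by edgeR's quasi-likelihood test, DESeq2 or limma-voom. Slc1a1, the 1 with an unadjusted p under 0.05, passed the study's cutoffs (0.365 CPM in WT, 0.175 in KO, adjusted p = 0.0849), but a gene on the other strand covers 31.9% of its exon bases.

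Among SLC6 carriers, Slc6a6 was the one with a high level. It encodes the taurine carrier TauT, and was counted at 118.0, 118.1 and 117.9 CPM in WT and 130.1, 132.1 and 134.6 CPM in KO. The WT libraries were nearly equal and all lay below KO, by 12.1% (log2 fold change 0.16 ± 0.032 SE, adjusted p = 0.00233, edgeR's quasi-likelihood test). Slc6a8, the creatine carrier, was not called (2.81 CPM in WT and 3.60 in KO, adjusted p = 0.124, edgeR). It lies on chromosome X and its KO libraries were above all WT libraries.

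The proton-coupled family SLC36 held the one member at 1 CPM or more that fell. Slc36a4, a carrier of proline and tryptophan, was counted at 19.2, 20.7 and 20.1 CPM in WT and 16.5, 17.0 and 16.7 CPM in KO. All KO libraries were below all WT libraries (log2 fold change -0.26 ± 0.053 SE, adjusted p = 0.0033, edgeR's quasi-likelihood test). Slc36a1, which exports amino acids from lysosomes, was at 47.1 CPM in WT and 49.4 in KO and was not called (adjusted p = 0.353, edgeR). In SLC43, the facilitative leucine carriers Slc43a1 (8.56 CPM in WT and 8.62 in KO) and Slc43a2 (87.1 and 84.3) and the purine base carrier Slc43a3 (17.9 and 19.0) were not called, although all KO values of Slc43a2 lay below all WT values.

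**Figure D4:**
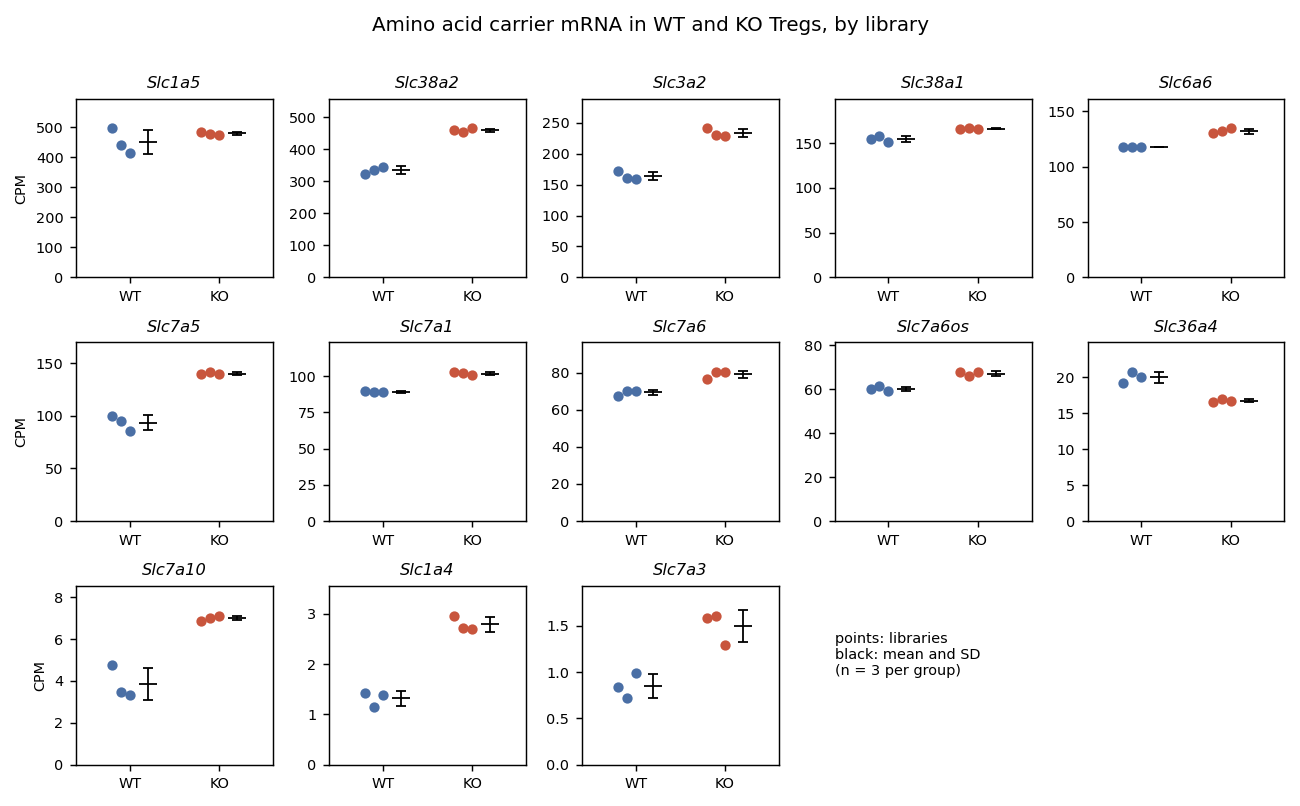
CPM in each library (points, axes from 0) with the mean and SD (black) for the 12 members called at a mean of at least 1 CPM and for Slc1a5. The 3 KO points lie above the 3 WT points in 11 of the 12 called members and below them in Slc36a4, whereas the groups overlap in Slc1a5.

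A further 4 members were called at a mean under 1 CPM, and are described here after their values were seen. Slc7a11, the cystine carrier xCT that pairs with Slc3a2, had 58, 74 and 57 counts in WT and 11, 27 and 27 in KO. Unlike its heavy chain it was lower in KO, with no overlap (log2 fold change -1.72 ± 0.403 SE, adjusted p = 0.00725, edgeR's quasi-likelihood test). Slc38a5, a glutamine and histidine carrier on chromosome X, had 18, 16 and 32 counts in WT and 0, 3 and 0 in KO (adjusted p = 0.0121, edgeR). The ratio was 0.0399, with an exact 95% interval of 0.00801 to 0.122. That interval covers counting error alone and takes each count as an independent fragment, which is not known. These falls ran alongside the lower marker sums of neutrophils, red cells, B cells and macrophages given above, and the part of other cells in them was not tested. Slc38a4, which encodes SNAT4, had 3, 3 and 21 counts in WT and 34, 56 and 82 in KO (log2 fold change 2.47 ± 0.676 SE, adjusted p = 0.0167, edgeR), and was not called without WT replicate 2 or without KO replicate 3 (adjusted p = 0.0962 and 0.0834). Slc6a9, the glycine carrier GlyT1, had 172, 132 and 65 counts in WT and 255, 239 and 236 in KO (log2 fold change 0.80 ± 0.224 SE, adjusted p = 0.0199, edgeR), and was called in 2 of the 6 fits that left out a library. Genes on the other strand cover 38.6% of its exon bases. Slc38a5 was not called without KO replicate 1 or KO replicate 3 (adjusted p = 0.051 and 0.0535).

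Summed over all 63 carriers and heavy chains, mRNA per unit length was 343.2, 326.1 and 315.9 CPM per kb in WT and 392.5, 389.1 and 387.8 in KO. The groups did not overlap and the KO mean was 18.7% higher. These sums are dominated by a handful of genes, so they are given as a description without a test. The SLC3 sum was 41.1% higher in KO, the SLC7 sum 33.9%, the SLC38 sum 19.6%, the SLC6 sum 12.0% and the SLC1 sum 6.54%. The SLC36 and SLC43 sums differed by -1.14% and -0.152%. In WT the SLC1 family, almost entirely Slc1a5, contributed 33.0% ± 1.62 of the total and in KO 29.7% ± 0.121 (SD, n = 3), while the share of SLC7 was 15.6% ± 0.244 and 17.6% ± 0.281.

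Genes that sense, use or respond to amino acids were examined in the same fit. Of 21 tested genes linked to the ATF4 response, 10 were called higher and 2 lower (57.1% called, against 24.1% of all genes tested), with a median log2 fold change of 0.24. Of the 18 at 1 CPM or more 61.1% were called, against 30.9% of all genes at that level. Atf4 itself was at 302.2 ± 9.14 CPM in WT and 391.2 ± 4.63 in KO (SD, n = 3, log2 fold change 0.37, adjusted p = 2.94e-06, edgeR's quasi-likelihood test). Members of this list past the study's cutoffs were Atf3, a transcription factor (12.4, 11.7 and 13.8 CPM in WT and 19.1, 20.9 and 20.2 in KO), Pycr1, an enzyme of proline synthesis (0.902 and 1.49 CPM on average), and Chac1, which degrades glutathione (0.099 and 0.338). All 3 were higher, with log2 fold changes of 0.67, 0.71 and 1.71. Ddit4 and Cebpg were called lower (log2 fold changes -0.37 and -0.35). Asns, the asparagine synthetase gene and a much used target of ATF4, rose from 3.32 to 4.65 CPM (adjusted p = 0.0177, edgeR). The 9 not called were Eif2ak4, Trib3, Psat1, Phgdh, Psph, Mthfd2, Aldh18a1, Cth and Nupr1 (adjusted p between 0.0649 and 0.845, edgeR). Of these, Phgdh was at 143.9 ± 3.12 CPM in WT and 150.2 ± 4.21 in KO (SD, n = 3).

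Of 36 genes of amino acid sensing by mTORC1, 8 were called higher and 1 lower, with a median of -0.023. The share of 25.0% stood against 24.1% of all genes tested. All 36 were at 1 CPM or more, where 30.9% of genes were called. Sesn2, a leucine sensor that restrains mTORC1, was the one past the study's cutoffs, at 18.7, 19.6 and 23.1 CPM in WT and 34.7, 36.5 and 33.4 in KO (log2 fold change 0.78 ± 0.068 SE, adjusted p = 2.74e-06, edgeR's quasi-likelihood test). Of 20 cytosolic tRNA synthetases, which load amino acids onto tRNA, 4 were called higher and 3 lower. All 20 were at 1 CPM or more, and their share of 35.0% stood against the same 30.9%. Farsb, a subunit of the phenylalanine enzyme, fell past the study's cutoffs (40.0 ± 3.46 CPM in WT and 26.4 ± 0.187 in KO, SD, n = 3). Of 25 amino acid enzymes, 8 were called higher and 2 lower (40.0%, and 42.9% of the 21 at 1 CPM or more). Gls2, a glutaminase, passed the study's cutoffs at a low level (0.742 and 1.24 CPM). Of 13 amino acid carriers outside the 7 families, 1 was called higher (Slc25a38) and 2 lower (Slc15a4 and Slc25a12). The share was 23.1%, and 25.0% of the 12 at 1 CPM or more. Myc, a transcription factor known to raise Slc7a5 and Slc1a5, was lower in KO (158.0 ± 7.59 and 139.0 ± 1.31 CPM, SD, n = 3, adjusted p = 0.00333, edgeR). The medians of the synthetases, enzymes and other carriers were 0.042, 0.043 and -0.087, where that of all genes tested was -0.0042.

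**Figure D5:**
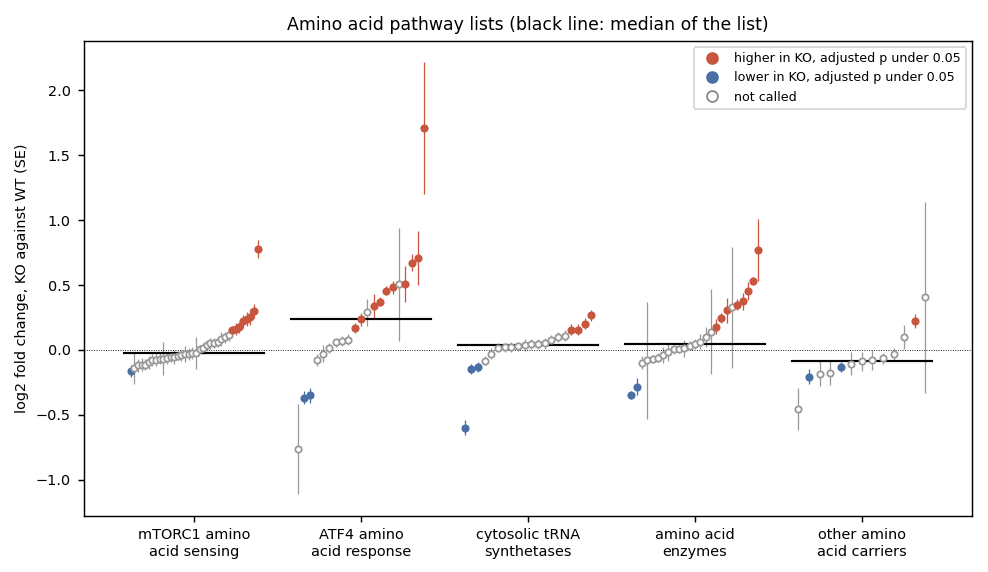
Fitted log2 fold change with its standard error for each tested gene of 5 amino acid lists, ordered within each list, with the list's median as a black line. The median of the ATF4 list lies at 0.24 and those of the other lists between -0.087 and 0.043, and filled points mark genes called higher (red) or lower (blue).

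Since ATF4 is known to act through a composite element with the core TGATGNAA, its letters were searched on both strands in the 250 bases before the start that the RefSeq promoter table (GRCm38.p6) gives for each gene. For Slc3a2 this start lies inside the gene span given above, and not at its end. The core was present in 3.45% of 32851 promoters. Of the 45 tested members 33 had a promoter entry, and 2 of these held the core, Slc7a11 and Slc7a7. Of the 16 called members 12 had an entry. Slc7a5, Slc38a1, Slc6a6 and Slc7a3 had none, so they were not searched for either motif. The E-box CACGTG, a site known for Myc, was present in 6.02% of promoters and in 4 of the 33 members, of which Slc38a5 was called and Slc36a1, Slc38a7 and Slc43a1 were not. The windows of Slc7a11, which was lower in KO, and of Slc1a4, Slc3a2 and Slc38a2, which were higher, are printed 5′ to 3′ with matches to the ATF4 core in capitals. Slc7a11 held 2 matches, which begin 66 and 47 bases before the start, one on each strand. A match is a stretch of letters and not a measured site, and a window without one says only that these letters are not in it.
Slc7a11, chr3:50443614-50443863, minus strand: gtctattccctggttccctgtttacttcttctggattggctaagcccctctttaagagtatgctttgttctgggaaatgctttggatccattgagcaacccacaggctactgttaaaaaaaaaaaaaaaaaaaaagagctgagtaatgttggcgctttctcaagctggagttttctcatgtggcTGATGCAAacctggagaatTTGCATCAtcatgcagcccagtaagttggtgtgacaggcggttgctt
Slc1a4, chr11:20332714-20332963, minus strand: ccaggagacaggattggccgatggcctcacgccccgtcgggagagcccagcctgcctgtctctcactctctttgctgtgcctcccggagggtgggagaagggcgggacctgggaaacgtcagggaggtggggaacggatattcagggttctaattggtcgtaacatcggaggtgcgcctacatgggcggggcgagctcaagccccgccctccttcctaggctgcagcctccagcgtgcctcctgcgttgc
Slc3a2, chr19:8713898-8714147, minus strand: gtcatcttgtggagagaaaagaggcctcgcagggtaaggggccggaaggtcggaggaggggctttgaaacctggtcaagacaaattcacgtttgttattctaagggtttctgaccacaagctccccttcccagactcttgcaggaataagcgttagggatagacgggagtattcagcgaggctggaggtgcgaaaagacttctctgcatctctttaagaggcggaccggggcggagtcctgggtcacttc
Slc38a2, chr15:96699729-96699978, minus strand: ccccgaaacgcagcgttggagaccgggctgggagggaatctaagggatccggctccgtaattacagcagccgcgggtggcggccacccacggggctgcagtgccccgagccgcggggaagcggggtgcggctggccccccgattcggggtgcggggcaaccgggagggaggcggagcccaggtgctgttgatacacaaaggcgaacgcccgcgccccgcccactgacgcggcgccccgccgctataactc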

How the data were processed

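Bulk RNA-seq of splenic CD4+CD25+ Tregs was analysed in 6 libraries, WT and KO replicates 1 to 3, grouped by the sample labels. The file deposited by the authors holds raw counts, 1 column per library and 1 row per gene symbol, without normalization. The submitters' processing notes name HISAT2, DESeq2 and mm10, and the counting tool, annotation and strand setting are not given in the sources used here. Counts of 1 and 2 (620 and 1045 entries) were rarer than counts of 4 (2579 entries), so the number of independent fragments behind the 133283969 to 209041812 counts per library is not known. Of the 32285 rows, 40 repeated a symbol.

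WT and KO were compared with edgeR 4.0.16 in R 4.3.3 (TMM scaling, filterByExpr, robust quasi-likelihood test, Benjamini-Hochberg adjustment over 17307 genes). A gene was called at an adjusted p under 0.05. Standard errors were derived from the F statistic. Merged exon lengths and positions came from the GENCODE annotation of GRCm38, and promoters from RefSeq. Named in full were Slc7a5, Slc3a2, Slc1a5 and each member called at a mean of at least 1 CPM, and of the pathway lists those past the study's cutoffs. Genes outside this rule were named after their values were seen, and a few genes are not reported here. Members, lists and rules were chosen with earlier results of these data known. Alternatives were other scalings and filters, edgeR's legacy method, DESeq2 1.42.0, limma-voom (limma 3.58.1), a block on the replicate number, each library left out in turn, library sizes without genes of other cells and, added after seeing the data, counts divided by 4. The test was checked on simulated counts. Replicate libraries differed by more than sampling noise if each count is an independent fragment, which is not known. None was treated as a duplicate.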

Additional observations from a re-analysis of the deposited data

How the results depend on the processing

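The number of members called was 16 in the reported fit, 12 to 20 when a library was left out and 13 to 17 under the other settings. Without WT replicate 3 it was 20, with 8 lower in place of 3. The number past the study's cutoffs was 9, 8 to 13 when a library was left out, and 4 when at least 1 CPM was required in 3 libraries, which tests fewer members (27). Among members at a mean of at least 1 CPM, 1 SLC6 and 2 SLC38 carriers were called, in place of 2 and 4. Slc7a5 kept its direction and call under all 17 settings (log2 fold change 0.53 to 0.63), as did Slc3a2 (0.48 to 0.54). Slc1a5 ranged from 0.033 to 0.16 when a library was left out and was called without WT replicate 1 alone. No log2 fold change of a named member changed sign under any of these settings. Slc38a1 was also not called under upper-quartile scaling (0.091) or with library size alone (0.075), and Slc38a4 not under edgeR's legacy method.

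WT and KO libraries of the same number did not deviate together from their group means (correlations 0.073, -0.026 and 0.0014 over 11043 genes), and nothing in the labels pairs them. With the replicate number as a block 16 members were called, 13 higher and 3 lower, with log2 fold changes of 0.59 for Slc7a5, 0.51 for Slc3a2 and 0.092 for Slc1a5, and 9 passed the study's cutoffs, 8 of them shared with the fit without the block. The block changed no call among the named members.

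Depth limits the carriers under 1 CPM, where small numbers of counts per library decide a call. With counts divided by 4, 14 members were called and 6 passed the study's cutoffs.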

Other observations

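Several carriers best known from brain were counted in WT replicates 1 and 2 and hardly elsewhere. Slc1a2, the main glutamate carrier of astrocytes, had 324 and 335 counts in WT replicates 1 and 2, 0 in WT replicate 3, and 8, 8 and 51 in KO replicates 1, 2 and 3. Slc6a17, a carrier of synaptic vesicles, had 82, 39 and 0 counts in WT and 0, 10 and 0 in KO, and Slc6a11, a GABA carrier, had 20, 21 and 0 in WT and 3, 0 and 0 in KO. Slc7a14 had 19, 16 and 0 counts in WT and 0, 0 and 3 in KO. None of these 4 was called, and Slc1a2 was the one tested (adjusted p = 0.169, edgeR's quasi-likelihood test). Other glutamate carriers of SLC1 were counted in KO as well. Slc1a3 had 73, 73 and 0 counts in WT and 56, 54 and 21 in KO. Slc1a1 had 74, 46 and 60 counts in WT and 45, 23 and 31 in KO.

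In a list of 8 genes of neurons and glia that was chosen after these values were seen, Snap25 had 156, 129 and 0 counts in WT and 0, 6 and 0 in KO. Gria2 had 77, 31 and 0 counts in WT and Mobp 29, 86 and 0, and both were at 0 in KO. Mbp, also a gene of myelin, did not follow this pattern, at 214.5 to 223.9 CPM in WT and 229.1 to 232.8 CPM in KO. Gfap was counted in every library and was lower in all KO than in all WT libraries (adjusted p = 0.0776, edgeR's quasi-likelihood test), and Aqp4 had 6, 16 and 0 counts in WT and 11, 56 and 11 in KO (adjusted p = 0.22). The summed CPM of the list, most of it Mbp, was 219.6 to 230.8 in WT and 233.7 to 237.7 in KO. These values belong to single libraries and were not tested as a group.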
